A study of Mus musculus with 16 samples.

Results

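The window of mouse chromosome 4 from 87000000 to 91000000 (build mm8) was read probe by probe in 16 tumour lines, to place the borders of a deletion named after Cdkn2a. All array probes that are not controls and have a position inside the window were taken, which gave 376 of the 233212 probes placed on chromosomes 1 to 19, X and Y. The window was selected on measured values of these same arrays. The depth of the deletion is therefore given below as a description, with no test. The 376 probes ran from 87018583 to 90991212 at a median spacing of 7644 bp. The widest stretch without a probe was 88.4 kb, from 88776278 to 88864714, and it lies beside the deletion.

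Genomic DNA from 1 culture of each line carried the red dye Cy5. The reference, labelled with the green dye Cy3, was mouse genomic DNA bought from Merck, the same on all arrays. Each value is the log2 ratio of line over reference, centred on the median of the autosomal probes of that array. A positive value is a relative gain in the line. The lines are transplantable tumours that grow in mice of their own strain. The 3 Balb/C lines were CT26 (colon), 4T1 (breast) and Renca (kidney), and the DBA/2 line was P815 (mast cells). The 12 C57BI6 arrays held MC38 (colorectal), LL2 (lung), Hepa1-6 (liver), PAN02 (pancreas), EL4 (blood), ID8 (ovary), TRAMPC1 and TRAMPC2 (prostate), and 4 stocks of the B16 melanoma. Those stocks were B16F0 ECAC, B16F0 ATCC, B16F10 NCI and B16F10 ATCC. The TRAMPC lines were labelled male and the others female. All lines were grown in vitro. There was 1 array per line, without replicates, and precision is limited by the number of arrays. The 4 B16 arrays are counted below as 1 family and the 2 TRAMPC arrays as another, which gives 12 families.

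Cdkn2a is a tumour suppressor gene with an unusual layout. Separate first exons, each with its own promoter, join a shared second exon in different reading frames. One transcript encodes p16Ink4a, which inhibits the kinases Cdk4 and Cdk6 and so keeps Rb active. The other encodes p19Arf, which inhibits Mdm2 and so stabilises p53. The neighbouring gene Cdkn2b encodes p15Ink4b, another inhibitor of Cdk4 and Cdk6, and Mtap on the other side encodes an enzyme that salvages methionine and adenine. Homozygous loss of this locus is common in tumours and in lines adapted to culture, and Mtap and the type I interferon genes beside it are often lost along with it.

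Probes have positions but no gene names in the files. The available gene table is on a later build, GRCm38.p6, and its positions cannot be set against mm8. Whether the deleted probes lie in Cdkn2a was therefore not checked, and the deletion is described by its probes. In that later build the order along the chromosome, away from the centromere, is Mllt3, Focad, Hacd4, Ifnb1, a cluster of interferon genes around Klhl9, Ifne, the microRNA gene Mir31, Mtap, Cdkn2a, Cdkn2b, Dmrta1, Elavl2 and Izumo3. Between Hacd4 and Mtap it lists 33 protein-coding genes, of which 14 carry an Ifna symbol. No protein-coding gene is listed between Mtap and Cdkn2a, or between Cdkn2b and Dmrta1.

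The promoters of the gene that names the window and of its neighbour Cdkn2b are shown as RefSeq gives them for GRCm38.p6, because the 2 Cdkn2a promoters are the starting points of the p19Arf and p16Ink4a transcripts. Each sequence runs from 250 bases before the start to 50 after it on the minus strand, 5′ to 3′, with each CG pair in capitals. Their place among the probes was not determined.
Cdkn2a, promoter nearer to Cdkn2b (p19Arf), chr4:89294570-89294869: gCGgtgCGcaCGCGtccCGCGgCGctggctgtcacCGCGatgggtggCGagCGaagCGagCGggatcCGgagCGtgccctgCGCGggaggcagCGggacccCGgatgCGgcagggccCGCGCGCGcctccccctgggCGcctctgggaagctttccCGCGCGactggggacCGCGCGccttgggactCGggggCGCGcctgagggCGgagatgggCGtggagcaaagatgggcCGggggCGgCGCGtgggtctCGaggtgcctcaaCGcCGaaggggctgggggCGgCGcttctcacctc
Cdkn2a, promoter farther from Cdkn2b (p16Ink4a), chr4:89282143-89282442: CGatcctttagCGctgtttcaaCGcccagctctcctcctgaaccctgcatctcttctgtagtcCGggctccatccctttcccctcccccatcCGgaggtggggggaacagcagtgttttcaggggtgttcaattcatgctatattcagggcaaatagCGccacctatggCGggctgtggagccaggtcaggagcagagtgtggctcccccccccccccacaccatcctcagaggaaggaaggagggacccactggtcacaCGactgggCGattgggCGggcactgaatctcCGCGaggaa
Cdkn2b, chr4:89310983-89311282: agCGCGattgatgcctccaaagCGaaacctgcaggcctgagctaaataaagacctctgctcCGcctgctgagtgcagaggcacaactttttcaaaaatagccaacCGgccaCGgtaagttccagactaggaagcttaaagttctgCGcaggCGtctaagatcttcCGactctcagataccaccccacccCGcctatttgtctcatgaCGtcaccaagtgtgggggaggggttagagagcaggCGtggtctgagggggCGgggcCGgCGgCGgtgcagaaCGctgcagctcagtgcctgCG
The CG pair reads the same on both strands. It occurs 45 times in the Cdkn2a promoter nearer to Cdkn2b, at a GC content of 77.0%, and 1.93% of the 32851 promoters of the table hold as many. The other Cdkn2a promoter holds 12 CG pairs, reached by 39.6% of promoters, and that of Cdkn2b holds 18, reached by 29.7%. The median over all promoters is 7. The mature microRNA of Mir31, a neighbour that codes for no protein, is shown with its seed (bases 2 to 8) in capitals.
mmu-miR-31-5p: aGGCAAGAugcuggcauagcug

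The noise between neighbouring probes, as reported by the scanner software, ran from 0.22 to 0.40 in log2 over the 16 arrays. The scan times place 6 arrays in a first batch (CT26, 4T1, B16F10 NCI, Hepa1-6, ID8 and Renca) and 10 in a second. The arrays labelled Hepa1-6 and PAN02 were more alike than the sublines of 1 family. Over 2408 autosomal bins of 1 Mb their values correlated at 0.992, against 0.932 for TRAMPC1 and TRAMPC2, 0.757 to 0.895 for the 6 pairs of B16 arrays and at most 0.564 for the 112 pairs of other families. These arrays share the reference and the probes. Where families are counted, Hepa1-6 and PAN02 are 2 of 12, and counting them once makes 11. No window probe was dim in the reference on any array, where dim means that the software did not call the signal well above background. Of the values in the window, 2 were missing.

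In 10 of the 16 arrays the line had almost no signal over a short stretch near the middle of the window. A low probe was one at or below -1, and a low run held at least 3 neighbouring probes whose running median of 3 stayed at or below -1. The part shared by the most families ran from 88748620 to 88759744, which is 11.1 kb and 3 probes. It lay in a low run in 11 arrays of 8 families. In 10 of these arrays, from 7 families, the median of the run was at or below -2, a limit chosen after the values were seen. Such runs are called deep here. The eleventh array was Renca, whose run was shallow. With Hepa1-6 and PAN02 counted once, deep runs were present in 7 of 11 families. With normexp background correction of the scanner signals in place of the processed signals, 5 arrays had a low run there.

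Both channels show where the low ratio comes from. At the 3 probes of the common part the line signal of the 10 arrays with a deep run ran from 13.0 to 85.4 intensity units, with a median of 33.1. The reference signal at these probes ran from 1470 to 2370 on the same arrays, with a median of 2025. In the other 6 arrays the line signal ran from 682 to 2180, with a median of 1300, and the reference signal from 1620 to 2170. The line signals of the 2 sets did not overlap, while those of the reference did. The sets were split by ratios that include these same probes, so this separation is a description and supports nothing. All 30 of those line values were dim, so a ratio there is a bound. In 4T1, as an example, the line had 34.7, 51.7 and 16.7 units at the 3 probes, and the reference had 1730, 2060 and 2070.

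**Figure D1:**
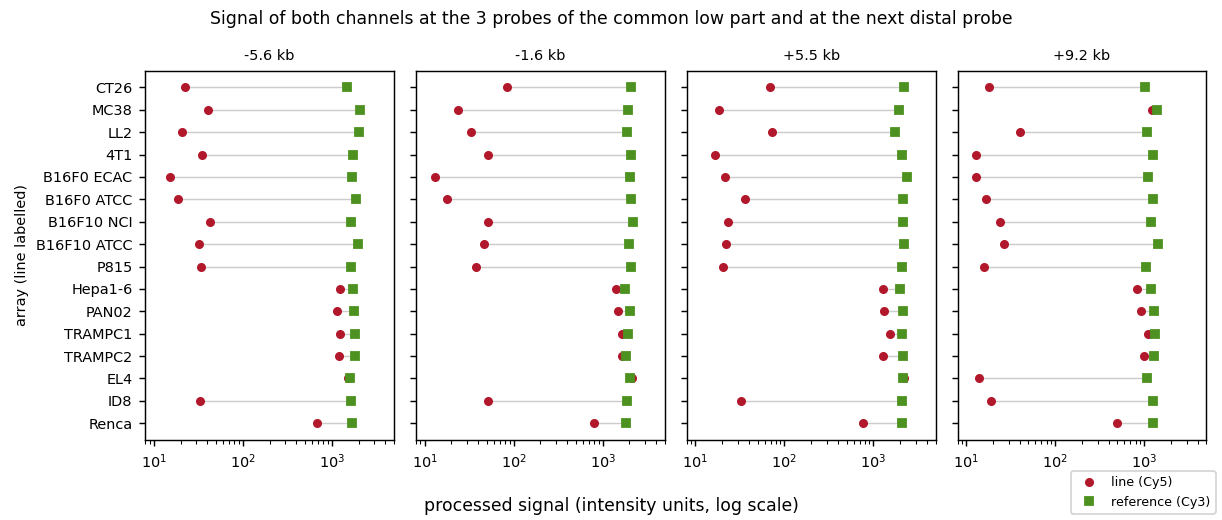
Processed signal of the line (red circles) and the reference (green squares) on a log axis, for each of the 16 arrays, at the 3 probes of the common low part and at the next distal probe; panel titles give the distance from the middle of the common part. In 10 arrays the line stands between 13.0 and 85.4 at the first 3 probes, and in the panel farthest right EL4 takes the place of MC38 among the dim arrays.

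The mean log2 ratio over the 3 probes was -7.00 in B16F0 ECAC, -6.50 in B16F0 ATCC, -6.06 in B16F10 ATCC and -5.75 in B16F10 NCI. It was -6.27 in MC38, -6.09 in P815, -6.01 in 4T1, -5.68 in LL2, -5.58 in ID8 and -5.25 in CT26, with SEs over the 3 probes of 0.17 to 0.58 across the 10 arrays. All of these values rest on dim signals, so their order has no meaning. With each dim line signal raised to the lowest signal called well above background on its array, the line was at least 19.5-fold below the reference in LL2 and at least 41.5-fold below it in B16F10 ATCC, and the other 8 arrays lay between these bounds.

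The deep runs differed in length by a wide margin, from 21.7 kb in MC38 to 2275.9 kb in P815, with a median of 69.7 kb over the 10 arrays. MC38 had the shortest, from 88738012 to 88759744, with 5 probes, all of them dim, at a median of -6.36. Just outside it MC38 stood at 0.24 on the proximal side and at -0.21 on the distal side. The deletion of MC38 can be at most 37.3 kb long.

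The 4T1 run covered 27.7 kb, from 88748620 to 88776278, with 6 probes, 5 of them dim, at a median of -5.52. It started farther distal than that of any other array: 4T1 stood at 0.02 at the probe that ends at 88742822, where the other 9 arrays with a deep run were below -4. The CT26 run covered 38.3 kb, from 88738012 to 88776278, with 8 probes, 7 of them dim, at a median of -5.12. These 2 Balb/C lines shared the last probe of their runs, 4T1 lacked the first 2 probes of that of CT26, and the probe-free gap follows on the distal side in both. The CT26 deletion can therefore be at most 138.7 kb long and that of 4T1 at most 121.9 kb.

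All 4 B16 arrays had the same run, from 88706575 to 88776278, which is 69.7 kb and 11 probes. The mean log2 ratio over the 11 probes was -5.91 in B16F0 ECAC, -5.79 in B16F0 ATCC, -5.17 in B16F10 NCI and -5.55 in B16F10 ATCC, or -5.60 ± 0.33 (SD, n = 4). All 11 probes were dim in 3 of the arrays and 10 of 11 in B16F10 NCI. At the probe before the run the arrays stood between -0.51 and -0.16, and at the probe after the gap between 0.23 and 0.95. The run thus had the same first and last probe in both sublines and in the stocks of the different suppliers. The stocks are not independent tumours.

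ID8, the ovarian line, shared the first probe of the B16 arrays at 88706575 and continued past the gap to 88873498. Its run spanned 166.9 kb with 13 probes, 11 of them dim, at a median of -5.13. ID8 stood at -0.04 just before the run and at -0.06 just after it. LL2, the lung line, started at 88738012, as did CT26 and MC38, and reached 89145898. Its 407.9 kb held 24 probes, 21 of them dim, at a median of -4.84. LL2 stood at 0.47 before the run and at 0.43 after it, so the step on each side took place between neighbouring probes.

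**Figure D2:**
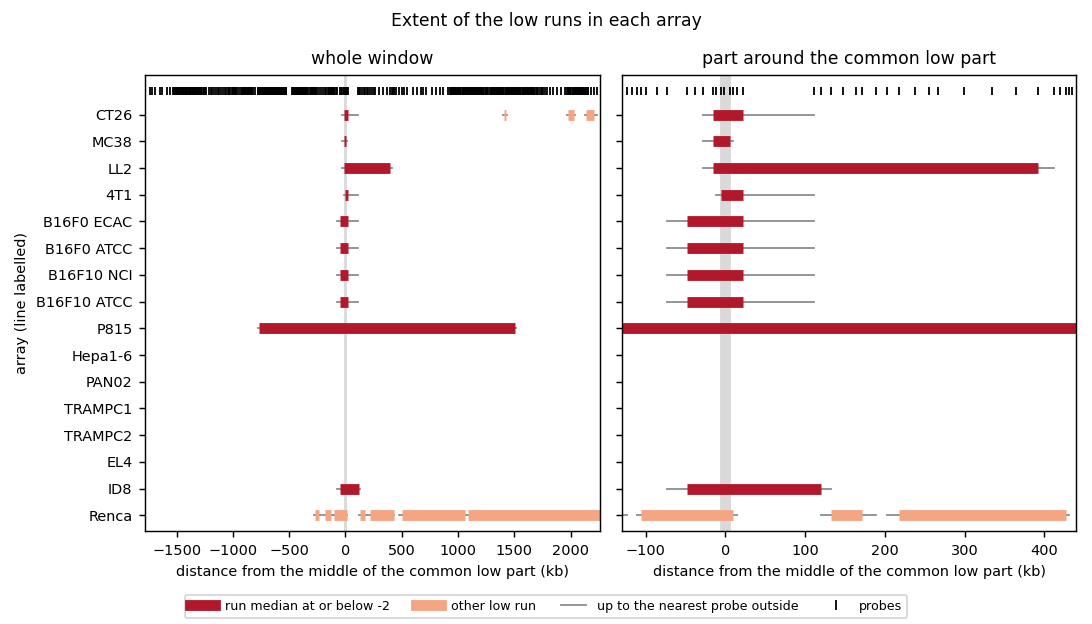
Low runs in each of the 16 arrays (thick bars, dark for a run median at or below -2, pale for other low runs), with thin lines out to the nearest probe outside and ticks for the probes; the x axis is the distance in kb from the middle of the common low part (grey band), for the whole window on the left and enlarged on the right. The deep runs range from 21.7 kb in MC38 to 2275.9 kb in P815, and all cross the common part.

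Fewer borders than arrays were seen, at the resolution of the probes. The proximal borders fell into 4 intervals. The interval from 88680982 to 88706575 (25.6 kb) held those of the 4 B16 arrays and of ID8, and that from 88726048 to 88738012 held those of CT26, MC38 and LL2. The borders of 4T1 and P815 lay in intervals of their own. The distal borders fell into 5 intervals, of which the probe-free gap of 88.4 kb held those of 6 arrays (CT26, 4T1 and the 4 B16 arrays). Borders in that gap can differ by up to its length. MC38, ID8, LL2 and P815 each had a distal border of their own, and that of MC38 was the tightest, between 88759744 and 88763392 (3.6 kb).

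The log2 ratio was not even along the runs. The probe at 88769295 lay in the deep run of 9 arrays and was dim in only 4 of them. Its values there ran from -5.80 to -2.36, with a median of -3.76. In the 6 arrays without a deep run it stood at a median of 0.43. The next probe, at 88776219, was dim in all of the same 9 runs, at a median of -3.92, and had a median of 0.96 in the other 6 arrays. The 3 probes of the common part, dim in all 10 deep runs, had medians of -5.84, -5.66 and -6.62 there, and -0.60, -0.33 and -0.71 in the other arrays. Ratios of dim probes are bounds, so these medians do not show that the depth of the loss differed.

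**Figure D3:**
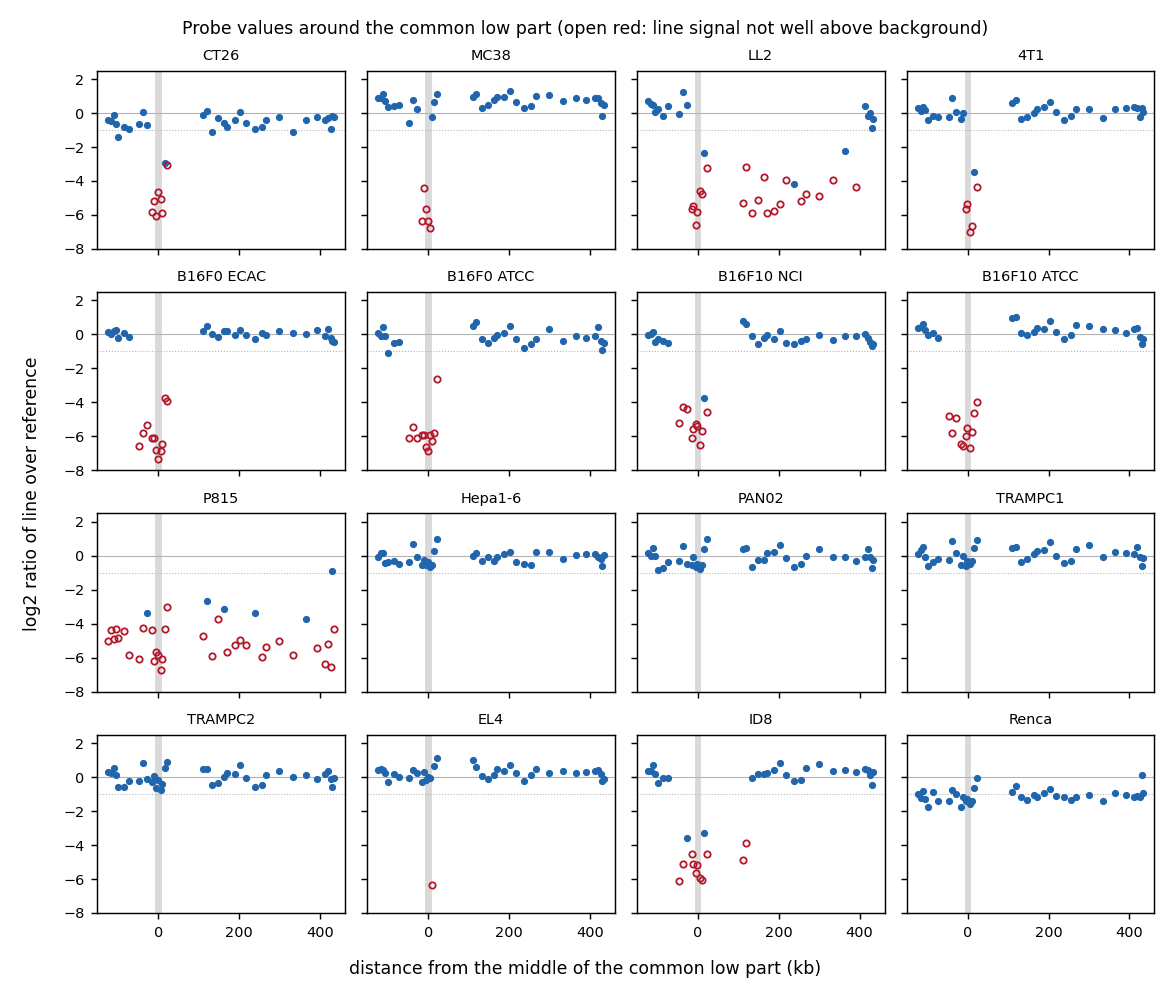
Log2 ratio of line over reference at each probe around the common low part (grey band) in the 16 arrays, against distance in kb from its middle; open red circles are line signals not well above background, filled blue circles all others, and the dotted line marks -1. The arrays with a deep run other than P815 drop within 1 probe step on each side. P815 is low over nearly the whole panel, since its run reaches past both ends. EL4 has 1 open circle beside the band, and Renca is shifted over the whole panel.

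P815, the mast cell line, had by far the longest run. It reached from 87985018 to 90260923, which is 763.6 kb proximal and 1501.2 kb distal of the common part, with 111 and 113 probes on these sides. Of its 227 probes 224 were low and 182 were dim, at a median of -4.97. The 45 probes above background had a median of -2.97, which is still far below that of the chromosome outside the window (-0.06). The 3 probes of the run that were not low lay at 88028056 (0.14), 89184415 (-0.87) and 89906426 (-0.63), each alone between low neighbours. Outside the run P815 stood at a median of 0.08 over the 86 proximal probes and -0.22 over the 63 distal probes of the window. The change point search of P815 split the run in 2 adjoining segments, at means of -4.37 and -4.93, with the step between 88360943 and 88365091. With a low probe set at -1.5 in place of -1, the P815 run over the common part measured 1196.1 kb.

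EL4, a lymphoma line, had no low run, but 1 probe of it was as low as those of the deep runs. The probe, from 88763392 to 88763451, is the one next to the common part. The line signal there was 13.8 units and the reference signal 1080, which is a log2 ratio of -6.35 and at least 16.8-fold below the reference. Its neighbours in EL4 stood at -0.04 and 0.64, so a loss at this probe can be at most 9.6 kb long. The value comes from 1 spot, and EL4 held 27 such lone dim probes at or below -3 on its autosomes (from 0 to 197 over the 16 arrays). The probe has no repeat spot on the array.

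The same probe was dim in CT26, LL2, 4T1, the 4 B16 arrays, P815 and ID8, at -6.66 to -4.74, but MC38 stood at -0.21 there. It was thus dim in 7 families, as were the 3 probes of the common part, with EL4 in place of MC38. No probe of the window was dim in both EL4 and MC38. The longest possible extents of the 2 overlap only from 88759744 to 88763392, where no probe lies.

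Renca, the kidney line, had a shallow loss over a broad part of the window. It had 7 low runs in the window, with medians of -1.52 to -1.16 and no dim probe. The change point search gave a mean of -0.32 up to 88477463, -1.09 ± 0.045 (SE, 63 probes) from 88485369 to 89520467 and -1.43 ± 0.021 (SE, 317 probes) from 89554257 to 93262782, past the end of the window. The common part stood at -1.41 ± 0.079 (SE, 3 probes), with line signals of at least 682 units, a 2.66-fold lower ratio. In DNA from many cells, loss of some copies in every cell and loss of more copies in part of the cells cannot be told apart. The common part lay inside the segment from 88485369 to 89520467, and the step before it was proximal of the common part, between 88477463 and 88485369. Counted from the ends of the run over the common part, the median was -0.32 over the 50 proximal probes and -1.19 over the 50 distal probes. The common part stood below both. The run over the common part, 115.4 kb long, was lost at a threshold of -1.5 and with centring on chromosome 4.

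In the other 5 arrays without a deep run the common part was also somewhat below its surroundings. The common part stood at -0.52 in Hepa1-6, -0.64 in PAN02, -0.45 in TRAMPC1, -0.51 in TRAMPC2 and -0.05 in EL4. Against the pooled median of the 50 probes on each side, these values were lower by 0.34, 0.51, 0.43, 0.46 and 0.23. The common part was below the median of either side in all 5, which are arrays of 4 families that share the reference DNA and the probes. The reference signal of the common part, relative to the autosomal median, was 0.81 to 0.99 in log2 over the 16 arrays. In Hepa1-6, PAN02, TRAMPC1 and TRAMPC2 a single segment spanned the whole window, at -0.26, -0.29, -0.14 and -0.24. EL4 had a step from 0.16 to -0.20 within the window, between 89554316 and 89594472, away from the common part.

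**Figure D4:**
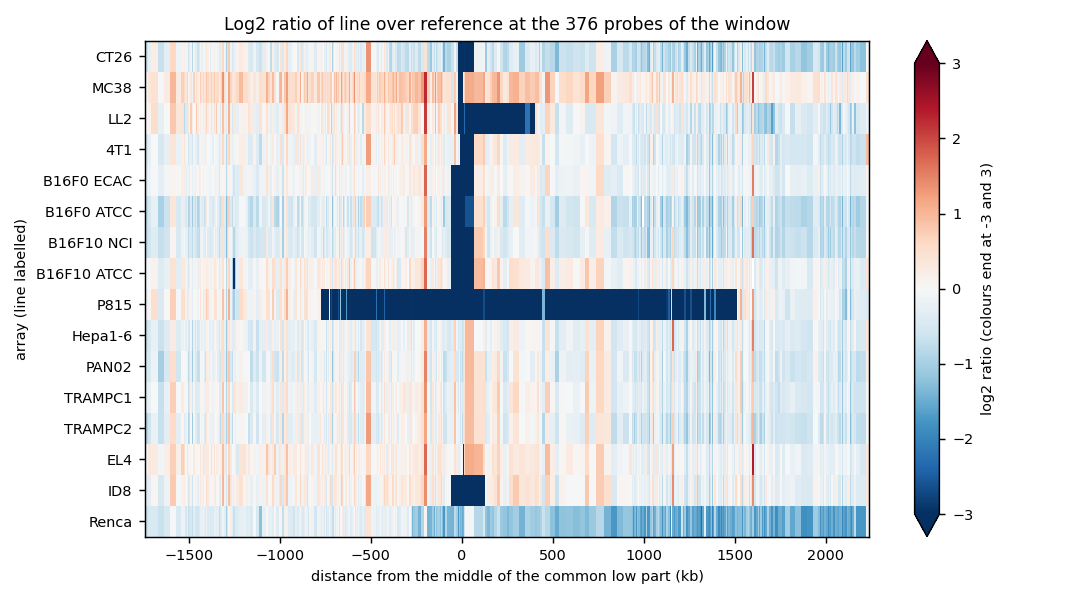
Log2 ratio of line over reference at the 376 probes of the window (colours end at -3 and 3), with 1 row per array and probes placed by their distance in kb from the middle of the common low part. The dark block is narrow in MC38, CT26 and 4T1, wider in ID8 and LL2 and 2275.9 kb long in P815, and Renca is pale blue from about the middle of the window to its end.

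The counts of low and dim probes place these runs against each whole array. A share of low probes near that of the autosomes is no sign of a loss in the window. All these counts come from the values that chose the window, and nothing is read from them but extent. P815 had 228 of 376 window probes low, where 4.79% of its autosomal probes were low, and 182 dim, where 0.490% were. Renca had 174 low, against 1.18% of autosomal probes, and 0 dim, against 0.181%. These are 60.6% of the window probes in P815 and 46.3% in Renca.

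CT26 had 60 low probes, against 1.52% of autosomal probes, and 8 dim, against 0.275%. Only 8 of the low probes lay in its deep run. Of the others, 15 lay in 3 shallow runs at medians of -1.28 to -1.10, all from 90165749 on. LL2 had 37 low probes, against 1.41%, and 22 dim, against 0.0884%. The LL2 probes outside the run included 1 dim probe at 90471128, at -1.20.

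Among the B16 arrays, B16F0 ATCC had 39 of 375 probes low, against 1.55% of autosomal probes, and 11 dim, against 0.0548%. B16F10 NCI had 27 of 376 low, against 0.685%, and 10 dim, against 0.0349%. B16F10 ATCC had 14 of 375 low, against 1.86%, and 11 dim, against 0.0277%. B16F0 ECAC had 12 of 376 low, against 0.453%, and 11 dim, against 0.0272%. The dim probes of all 4 arrays lay in the run and nowhere else in the window, while the low probes outside it numbered from 1 in B16F0 ECAC to 28 in B16F0 ATCC. B16F10 ATCC also had a lone low probe at 87502706, at -4.18 and above background.

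ID8 had 15 low probes, against 0.639% of autosomal probes, and 11 dim, against 0.0163%. In 4T1 8 were low, against 1.02%, and 5 dim, against 0.197%. In MC38 5 were low, against 1.02%, and the same 5 were dim, against 0.0109%. In MC38 no window probe outside the run was low.

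Of the 6 arrays without a deep run, Renca is given above, and the other 5 had at most 12 low probes each. TRAMPC2 had 12 low, against 1.72% of autosomal probes, and 0 dim, against 0.0322%. In PAN02 9 were low, against 0.841%, and 0 dim, against 0.0385%. In TRAMPC1 5 were low, against 1.28%, and 0 dim, against 0.0109%. These were scattered single values that formed no run. Hepa1-6 had 3 low, against 0.271%, and 0 dim, against 0.0349%. EL4 had only the 1 probe described above, both low and dim, against 2.98% low and 0.0907% dim over its autosomes.

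On the autosomes as a whole, the window held the deep run with the most probes in LL2, ID8 and P815. In B16F0 ECAC and B16F10 NCI it shared that place with another run of 11 probes. Its rank by probes was 2 in MC38 and B16F0 ATCC, 3 in B16F10 ATCC, 4 in CT26 and 7 in 4T1. In MC38, LL2, B16F0 ECAC, B16F0 ATCC, B16F10 NCI and ID8 it was the only deep autosomal run in which most probes were dim. CT26 had 17 other such runs, 4T1 had 12, B16F10 ATCC had 1 and P815 had 22.

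How far the loss reaches into neighbouring stretches differed between lines, and so did the level of the chromosome beside it. The change point segment distal of the deep run had a mean of -0.79 in CT26, -0.59 in B16F0 ATCC and -0.56 in B16F10 NCI. The proximal segment stood at -0.27, -0.39 and -0.36 in these arrays. In the other arrays with a deep run the distal segment ran from -0.37 in LL2 to 0.29 in MC38. The deep runs of MC38, 4T1, CT26 and the B16 arrays stayed within 88706575 to 88776278. That of ID8 took 2 probes past the gap and that of LL2 took 16, while P815 reached out on both sides. The probes from 87985018 to 88680923 lay in the deep run of P815 alone, and those from 88887041 to 89145839 in the deep runs of P815 and LL2. Dim values in 1 family only were found at 164 of the 376 probes, and at 189 probes no family was dim. That family was P815 except at 88725989 (B16), 88917398 and 90471128 (LL2) and 90912545 (CT26). The count of 164 thus mostly restates the length of the P815 run. Whether the interferon cluster, Mtap, Cdkn2b or Dmrta1 were taken along could not be read from these files.

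The level of the chromosome differed between the sides of the low stretch. The 50 probes on each side were counted from the ends of each array's own run over the common part, or from the common part where there was no run. They were not the same probes in all arrays: in P815 they lay beyond 763.6 kb proximal and 1501.2 kb distal of the common part. The distal median was below the proximal median in all 16 arrays, by 0.07 to 0.86 in log2, with a median difference of -0.23. In the 10 arrays with a deep run the difference ran from -0.68 in LL2 to -0.07 in B16F10 ATCC. In the other 6 it ran from -0.86 in Renca to -0.09 in Hepa1-6. The arrays share the reference and the probes, so the sign is not independent evidence between arrays.

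The last comparison asked whether window probes differ between lines of Balb/C and C57BI6 origin. The 3 Balb/C lines were set against 8 C57BI6 families with limma over 220255 autosomal probes, and 2.34% of these passed a Benjamini-Hochberg adjusted p of 0.05. In the window 27 of 376 probes passed (7.18%), all of them lower in Balb/C, with differences of -1.87 to -0.69 in log2. Over all autosomes 4359 of the 5153 called probes were lower in Balb/C as well. The fit uses the same ratios on which the window was selected, in another contrast, so these counts describe the window and support nothing about it. Of these 27, 23 lay distal of the common part, and no probe of the common part passed. In all 27 Renca was the lowest of the 3 Balb/C lines. Without Renca 2 window probes were called (0.532%, against 1.71% of all probes tested), without CT26 7 (1.86%, against 1.76%) and without 4T1 109 (29%, against 1.93%). Blocking on scan batch left 2 (0.532%, against 1.47%), and the first batch by itself, which holds all 3 Balb/C lines, gave 3 (0.798%, against 1.44%). The share in the window was thus above that of the array in the fit of all lines and without 4T1, close to it without CT26, and below it in the other 3 of these settings.

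Of the called probes, that at 90072464 stood at -1.499 in CT26, -0.89 in 4T1 and -2.31 in Renca, against -0.35 to 0.49 over the 12 C57BI6 arrays. The groups did not overlap. The mean was -1.57 ± 0.72 (SD, n = 3 lines) in Balb/C and 0.15 ± 0.24 (SD, n = 8 families) in C57BI6, a difference of -1.72. The probe with the largest difference lay at 89915322, with -0.93 in CT26, -0.54 in 4T1 and -1.51 in Renca, against 0.07 to 1.73 in the C57BI6 arrays. Its difference was -1.87. Both probes lay in change point segments with means of -1.43 in Renca, -0.79 in CT26 and -0.29 in 4T1. In the C57BI6 arrays the segments there ran from -0.59 in B16F0 ATCC to 0.29 in MC38. How much of the differences comes from these levels was not tested. P815, of DBA/2 origin and outside this fit, was deleted at both probes, at -5.71 and -4.89.

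The other 8 of the 10 called probes with the largest differences lay at 90356872, 89440933, 89225947, 88552440, 88521563, 87648700, 90165749 and 90182227. Their differences ran from -1.395 to -0.90.

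**Figure D5:**
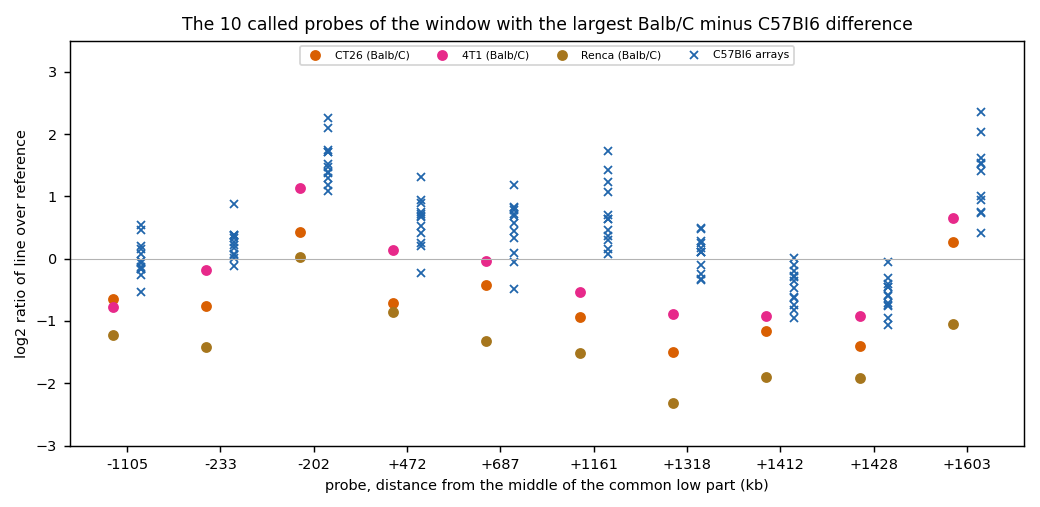
Log2 ratio of line over reference at the 10 called window probes with the largest Balb/C minus C57BI6 difference, ordered by distance in kb from the middle of the common low part; filled circles are the 3 Balb/C lines and crosses the 12 C57BI6 arrays (11 at the probe farthest right, where 1 value is missing). Renca is the lowest Balb/C line at each probe, and at the probe at +1318 kb the groups are apart (-2.31 to -0.89 against -0.35 to 0.49).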

How the data were processed

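Genomic DNA of 16 lines was hybridised to Agilent 2-colour arrays, 1 per line. The authors' deposited scanner files hold processed intensity values made with Agilent Feature Extraction 10.7.3.1 (mm8), background-subtracted and dye-normalized by a linear factor without lowess, per the file headers. Checked against these signals, the log10 ratio deposited for each spot matched (tolerance 0.001 in log2) at over 99.9% of spots on each array. The deposited value table held the same ratio in log2 units (largest difference 5.06e-05), so scale and direction were settled and no further centring had been applied. Its column medians ran from -0.044 to 0.053.

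From these, log2 of red over green processed signal was centred on each array's autosomal median. Controls and outlier-flagged spots were dropped, and a probe with repeat spots was averaged. The members and gene names were chosen with earlier results of these data known. Named positions are each low run with its ends and neighbours, the common part, and up to 10 called probes per direction in the strain comparison. Change points were placed with a penalty of 6 squared noise SDs times the log of the number of probes, at least 5 probes a segment, and values limited to 3 noise SDs around a running median of 5. The strain fit used limma 3.58.1 (lmFit, eBayes) in R 4.3.3, with sublines averaged per family and P815 left out. Its p-values measure the spread between lines. Scripts were tested on simulated data. Alternatives were normexp correction (offset 50, on median signals, since mean signals were not used here), mode and chromosome 4 centring, flagged spots kept, probes dim in the reference dropped, thresholds of -0.7 and -1.5, a running median of 5, change points, and for strains the batch as a block, families as a random block and leaving out lines.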

Additional observations from a re-analysis of the deposited data

How the results depend on the processing

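The 10 deep runs over the common part did not depend on the limit for their median: 10 arrays were counted at -3 and at -1.5, limits chosen after seeing the data. The number of arrays with a low run there stayed 10 or 11 under all settings but normexp background correction, where it was 5. Under normexp, whose input was the median signals, the level over the common part was -0.67 in CT26, -2.47 in MC38, -2.10 in LL2, -2.58 in 4T1, -0.30 in B16F0 ECAC, -2.17 in B16F0 ATCC, -0.92 in B16F10 NCI, -0.80 in B16F10 ATCC, -0.55 in P815, -0.68 in ID8 and Hepa1-6, -0.14 in PAN02 and TRAMPC2, -1.78 in Renca and, with its sign turned, 0.42 in EL4. The run measured 25.4 kb in LL2, 20.7 kb in 4T1, 37.5 kb in B16F0 ATCC and 95 kb in Renca, and 0 kb in CT26, the other B16 arrays, P815 and ID8. Low probes then numbered 21 in LL2, 16 in 4T1, 12 in TRAMPC1, 7 in Hepa1-6, 2 in P815, 1 in B16F10 NCI and 0 in CT26, B16F0 ECAC, B16F10 ATCC, PAN02, TRAMPC2, EL4 and ID8. The cause was not tested.

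Centring each array on chromosome 4 outside the window gave 26 low probes in CT26, 17 in B16F0 ATCC, 12 in B16F10 NCI, 3 in TRAMPC2, 1 in PAN02 and TRAMPC1, 0 in Hepa1-6 and 114 in Renca, and levels of -0.27 in Hepa1-6, -0.38 in PAN02 and -1.08 in Renca, where the run was lost (0 kb). With mode centring Hepa1-6 had 1 and PAN02 5 low probes. The autosomal shares of low probes given above hold only for a threshold of -1 with centring on the autosomal median. No autosomal share stands beside the counts under normexp, other centring or other thresholds. Those counts cannot be set against the shares above. A threshold of -0.7 gave 138 low probes in CT26, 62 in LL2, 34 in 4T1, 122 in B16F0 ATCC, 87 in B16F10 NCI, 16 in Hepa1-6, 43 in PAN02, 18 in TRAMPC1, 54 in TRAMPC2 and 4 in EL4, and lengthened the CT26 run to 50.3 kb. At -1.5 there were 12 in CT26, B16F0 ATCC and B16F10 NCI, 77 in Renca and 0 in Hepa1-6, PAN02, TRAMPC1 and TRAMPC2, the Renca run was lost, and that of P815 was cut to 1196.1 kb. The Renca run was 278.1 kb with mode centring, at -0.7 and with a running median of 5, and 1035.1 kb by change points, which gave 62.8 kb in B16F0 ATCC and 1895.8 kb in P815. Each border was read from single probes of 1 array, so its error is at least the probe spacing.

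For the strain comparison, 27 window probes passed (7.18%, against 2.34% of all probes tested). With normexp 1 passed (0.266%, against 0.586%), with the batch as a block 2 (0.532%, against 1.47%). Within the first batch 3 passed (0.798%, against 1.44%), and with families as a random block 17 of 374 (4.55%, against 2.25%). Leaving out 1 Balb/C line gave from 2 (0.532%, against 1.71%) to 109 (29%, against 1.93%). No paired analysis was possible because each line has 1 array and the replicate numbers pair no samples. Signal over background limits the ratio of each dim probe inside the deep runs, and at those probes the depth is only a bound.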
